A study of Mus musculus with 10 samples.

Results

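The genes described here are the mouse collagen genes outside the 8 classical fibril-forming ones. A region listed in the deposited tables was taken as a member when its gene symbol was Col, a number, the letter a and a chain number, and was not Col1a1, Col1a2, Col3a1, Col5a1, Col5a2, Col5a3, Col11a1 or Col11a2. This gave 36 of 22473 genes and 1005 of 340994 listed regions over 5 tables. Col2a1, Col24a1 and Col27a1 also form fibrils but are kept by the rule, and they are named as such below.

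Primary cardiac fibroblasts from mouse hearts were studied by CUT&Tag, a method that tethers a transposase to an antibody bound on chromatin so that the DNA beside it is cut, tagged and read. The comparisons ask how TGF-β alters lactylation of histone H3 at lysine 9 (H3K9lc), and how depletion of the glycolytic enzyme hexokinase 1 (HK1) under TGF-β alters H3K9lc and the binding of JUN, SMAD3 and NFATC2. Of the 10 libraries, 9 were used, with 1 library per condition and antibody. The NC library came from untreated cells, the TGF libraries from cells given TGF-β, and the siHK1 libraries from cells given an siRNA against HK1 as well as TGF-β. TGF-β is thus common to both arms of the 4 siHK1 tables. The titles of NC and of the SI library for H3K9lc do not spell out the antibody or the siRNA target, and both were read from the table that their labels name. The libraries hold no RNA or protein measure, so depletion of HK1 could not be checked. No value below has a replicate error, no difference was tested, and every statement compares libraries.

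Collagens are triple-helical proteins of the extracellular matrix. Type IV collagen forms the network of basement membranes, type VI forms beaded microfibrils around cells, and type VII anchors basement membranes to the matrix beneath them. FACIT collagens sit on the surface of fibrils, multiplexins (types XV and XVIII) carry heparan or chondroitin sulphate chains beside basement membranes, and types XIII, XVII, XXIII and XXV span the plasma membrane. JUN is a subunit of the AP-1 transcription factor, SMAD3 carries the TGF-β receptor signal to DNA, and NFATC2 is a calcium-regulated factor. TGF-β is known for raising collagen synthesis in fibroblasts.

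The depth of the tables differed widely. Reads over listed regions, which are not library depths, were 4215447 and 2271336 in the TGF and siHK1 libraries for JUN, and 2490853 and 1419023 for H3K9lc. They were 563562 and 399897 for SMAD3, 575706 and 354599 for NFATC2, and only 115572 in NC against 2313288 in TGF. The median member region held 43 and 22 reads for JUN and 13 and 7 for H3K9lc, but 3 and 3 for SMAD3, 3 and 2 for NFATC2, and 1 in NC. Nearly every listed region carried a peak mark in at least 1 library, so a region with few reads could enter only through the library where it was high. Peaks were called in both libraries at 158 of 298 member regions for JUN (53.0%, against 49.7% of all JUN regions). For SMAD3 they were called in both at 9 of 194 (4.64%, against 4.98% of all SMAD3 regions). The JUN table held promoter regions of 7 of 7 fibroblast marker genes, 2 of 6 for cardiomyocytes and 3 of 4 for endothelium. It held them for 2 of 4 macrophage genes and 1 of 3 for smooth muscle or pericytes. Promoter regions were listed for 11981 of the 16971 genes with JUN regions, so these counts do not settle the cell type.

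A set of 3 regions in every table needs to be set apart before the results. They are listed under Col19a1, a FACIT gene at chr1:24261890-24587472, but lie outside it, at chr1:24611632-24616138 in the JUN table, over 7 unprocessed pseudogenes. All of their 36-base words also occur in the mouse mitochondrial genome (100%), so their reads cannot be told apart from reads of mitochondrial DNA. They held 35508 JUN reads in TGF and 22143 in siHK1, and 35169 and 36791 SMAD3 reads. These were 61.9% and 66.5% of all JUN reads at member regions and 97.4% and 97.5% of all SMAD3 reads at member regions. Within the whole SMAD3 table their share was 6.24% in TGF and 9.20% in siHK1, and their SMAD3 log2 ratios were 1.03 to 1.10. The other Col19a1 regions held at most 64 reads, and Col19a1 is left out of the counts of gene sums unless named.

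Regions were spread unevenly over the genes. Col4a1 had the most JUN regions (36), followed by Col15a1 (24) and by Col6a3 and Col14a1 (21 each). H3K9lc regions were most numerous at Col23a1 (19), Col13a1 (17), Col26a1 (14) and Col22a1 (11). The 4 transmembrane collagen genes held 45 of 153 H3K9lc member regions (29.4%) and 25 of 298 JUN member regions (8.39%). Per 100 kb of gene, and counting only regions inside it, Col13a1 held 7.10 H3K9lc regions and Col4a1 held 0.87. Col2a1 and Col26a1, which are not transmembrane, held 10.3 and 8.48, and the transmembrane Col25a1 held 1.49. There were 23 genes with regions in all 5 tables. No H3K9lc region was listed in the siHK1 table for 10 genes, among them Col4a2, Col12a1 and Col16a1, whereas only Col9a2 and Col10a1 had no JUN region.

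**Figure D1:**
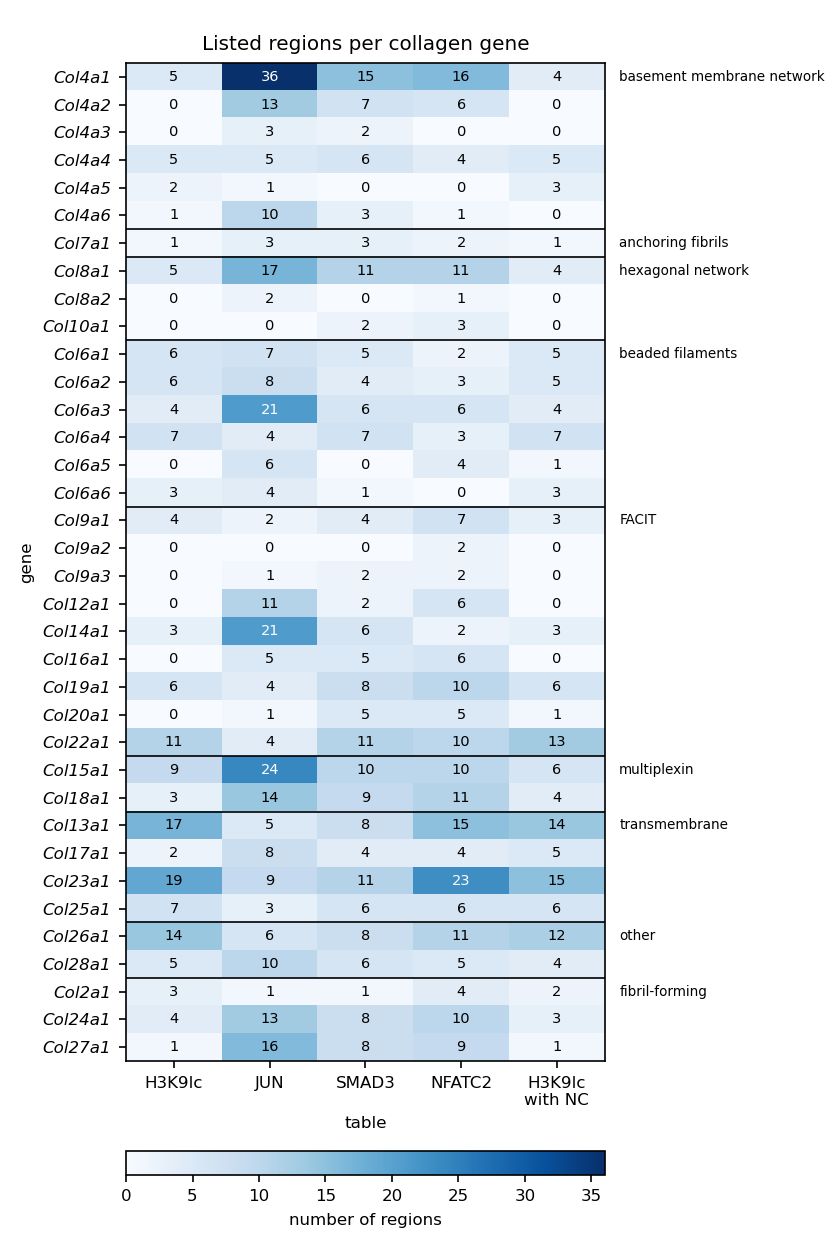
Number of listed regions (colour and printed number) for each of the 36 genes (rows, grouped by collagen class) in each of the 5 tables (columns). Col4a1 stands out for JUN with 36 regions, while Col23a1 and Col13a1 lead for H3K9lc with 19 and 17.

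Member regions lay mostly within genes. Introns held 161 of 298 JUN member regions (54.0%, against 35.6% of all JUN regions) and promoters, within 3 kb of an annotated start, held 46 (15.4%, against 25.6%). For H3K9lc, 75 of 153 member regions were intronic (49.0%, against 23.1% of all) and 50 were distal intergenic (32.7%, against 65.3%). A gene symbol comes from the nearest start site in the authors' annotation, and 201 of 298 JUN member regions overlapped the gene they are listed under. Of the JUN regions listed under Col4a1, 19 of 36 overlapped Col4a1, and 10 had their centre in its neighbour Col4a2.

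JUN is the deepest of the tables, and its member regions are shown first by their letters. Printed below are the central 200 bases, GRCm38, plus strand, of the 2 member regions with the largest rise and the 3 with the largest fall among those above the table's median level, and of 3 regions with high JUN reads in both libraries that hold an AP-1 site. The last 3 were chosen after their values were seen, as the non-exonic windows with the highest level. Capitals mark the AP-1 letters TGACTCA or, on the other strand, TGAGTCA.
Col4a4 intron 1, 29 to 42 reads, chr1:82578293-82578492: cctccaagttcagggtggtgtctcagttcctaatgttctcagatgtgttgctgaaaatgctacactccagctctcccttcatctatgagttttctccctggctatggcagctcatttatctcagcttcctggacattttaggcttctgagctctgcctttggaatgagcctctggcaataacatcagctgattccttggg
Col4a1 intron 2, 48 to 58 reads, chr8:11263960-11264159: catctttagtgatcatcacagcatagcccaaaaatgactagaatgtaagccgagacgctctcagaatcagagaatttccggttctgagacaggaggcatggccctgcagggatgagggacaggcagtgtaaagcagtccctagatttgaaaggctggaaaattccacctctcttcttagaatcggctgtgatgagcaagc
Col24a1 intron 19, 60 to 11 reads, chr3:145375393-145375592: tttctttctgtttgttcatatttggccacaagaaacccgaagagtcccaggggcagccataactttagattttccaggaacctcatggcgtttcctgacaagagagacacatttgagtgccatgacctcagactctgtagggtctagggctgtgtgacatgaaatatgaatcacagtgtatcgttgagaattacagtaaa
Col7a1 promoter, 146 to 28 reads, chr9:108953031-108953230: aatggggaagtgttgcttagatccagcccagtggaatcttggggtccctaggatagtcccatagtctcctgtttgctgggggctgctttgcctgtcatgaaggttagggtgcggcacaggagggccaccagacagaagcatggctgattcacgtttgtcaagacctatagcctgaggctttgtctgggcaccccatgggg
Col27a1 intron, 71 to 14 reads, chr4:63288695-63288894: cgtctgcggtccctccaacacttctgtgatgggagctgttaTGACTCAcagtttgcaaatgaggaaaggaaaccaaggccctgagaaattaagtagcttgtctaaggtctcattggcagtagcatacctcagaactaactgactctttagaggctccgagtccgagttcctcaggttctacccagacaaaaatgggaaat
Col27a1 intron 41, 363 to 197 reads, chr4:63316169-63316368: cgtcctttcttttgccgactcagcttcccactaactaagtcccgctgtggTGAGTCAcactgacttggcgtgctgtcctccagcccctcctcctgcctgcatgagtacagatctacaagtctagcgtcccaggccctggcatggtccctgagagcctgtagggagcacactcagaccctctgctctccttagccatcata
Col6a3 intron 1, 317 to 213 reads, chr1:90834876-90835075: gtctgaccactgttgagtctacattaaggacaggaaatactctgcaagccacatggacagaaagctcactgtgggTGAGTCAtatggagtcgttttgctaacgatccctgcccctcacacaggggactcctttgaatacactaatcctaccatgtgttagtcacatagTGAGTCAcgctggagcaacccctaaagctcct
Col4a2 intron 4, 332 to 181 reads, chr8:11392834-11393033: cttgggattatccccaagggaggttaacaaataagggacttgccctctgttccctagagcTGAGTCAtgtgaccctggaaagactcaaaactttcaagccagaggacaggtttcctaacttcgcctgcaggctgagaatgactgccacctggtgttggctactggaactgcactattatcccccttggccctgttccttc

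AP-1 letters, searched on both strands in the central 200 bases, were found in 87 of 298 JUN member regions (29.2%, exact 95% interval 24.1 to 34.7) and in 24.1% of all 72990 JUN regions. Above the table's median level the shares were 36.4% of 173 member regions and 30.0% of all. Of the 17 member regions at least 2-fold higher in siHK1 1 held them (exact 95% interval 0.15 to 28.7%). They were in 7 of 34 at least 2-fold lower (8.70 to 37.9%) and 79 of the 247 between (26.2 to 38.2%). The same shares over all JUN regions were not computed. Of the 173 member regions above the median level 2 were called higher and 7 lower, so most called regions were of lower level. Among the 5 windows printed for the largest rises and falls, the intronic Col27a1 region held a site, and the Col7a1 promoter region held its AP-1 letters outside the window, 108 bases from the centre. Col18a1, Col24a1 and Col27a1 had the letters in 7 JUN regions each, and Col4a1 in 9 of 36. The SMAD letters CAGAC or GTCTG were in 82 of 194 SMAD3 member regions (42.3%, against 38.2% of all), and the NFAT letters GGAAA or TTTCC in 94 of 220 NFATC2 member regions (42.7%, against 42.9%).

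JUN at most of these regions differed little between the libraries. The log2 ratio of a region is the siHK1 value minus the TGF value, each normalised and on a log2 scale as deposited, and a region is called when it is at least 2-fold higher or lower. Of 298 member regions 17 were called higher (5.70%, background 5.66% of all JUN regions) and 34 lower (11.4%, background 13.7%). The median log2 ratio was -0.15 for members and -0.13 for all regions, so the member counts lay near the background. The 8 fibril-forming genes left out by the rule had a median of -0.19.

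**Figure D2:**
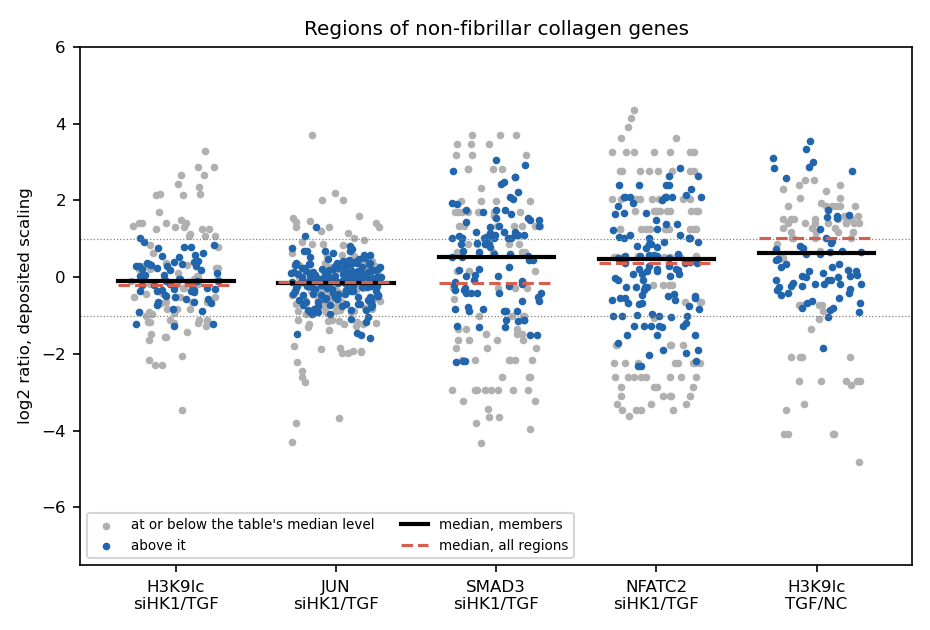
Log2 ratio (vertical axis, deposited scaling) of each member region in the 5 tables, with blue points for regions above the table's median level, a solid line for the member median, a dashed line for the median of all regions and dotted lines at 2-fold. JUN ratios cluster around -0.15, whereas SMAD3, NFATC2 and the NC comparison, with few reads per region, scatter far past 2-fold both ways.

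The promoter of Col7a1, the anchoring fibril gene, had the largest JUN fall of any member promoter above the median level. The region at chr9:108952640-108953621, which spans the start site, held 146 reads in TGF and 28 in siHK1, a log2 ratio of -1.50. A further Col7a1 region inside the gene, 95 and 37 reads, had a ratio of -0.51, and the third, 260 and 143 reads, had one of 0.03. Of the 3 JUN regions of this gene only the one at its main start was called.

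Col27a1, a fibril-forming gene kept by the rule, had 5 JUN promoter regions, and each had a negative ratio. They held 128 and 31 reads (-1.17), 33 and 10 (-0.89), 132 and 51 (-0.51), 172 and 68 (-0.46) and 114 and 49 (-0.36) in TGF and siHK1. An intronic Col27a1 region with 71 and 14 reads had a ratio of -1.48. Of the 16 JUN regions at Col27a1 0 were called higher (background 5.66%) and 2 lower (background 13.7%), near the background.

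The multiplexin genes also lay mostly below 0. The region over the Col15a1 start held 30 reads in TGF and 4 in siHK1, a log2 ratio of -1.99, although its level was below the table's median. Of the 24 Col15a1 regions 4 were called lower (background 13.7%) and 0 higher (background 5.66%). Its highest region, distal at chr4:47176857-47178563, held 465 and 209 reads (-0.22). The Col18a1 promoter region held 54 and 18 reads (-0.75). Col18a1, whose product is cleaved to release endostatin, had 0 of 14 JUN regions past 2-fold (background 5.66% higher and 13.7% lower).

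Among the type VI genes, the Col6a2 promoter region held 33 and 11 JUN reads (-0.76). The Col6a3 promoter regions held 36 and 11 reads (-0.88) and, over the start, 14 and 7 (-0.22). Of the 50 type VI regions 8 were called lower (background 13.7%) and 4 higher (background 5.66%), near the background. The lower calls include 3 of 8 Col6a2 and 2 of 7 Col6a1 regions, and the higher ones 2 of 4 Col6a6 regions and 1 each at Col6a3 and Col6a4. The Col6a5 promoter region, with 110 and 58 reads, had a ratio of -0.07.

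The FACIT promoters varied among themselves. Col12a1 had 4 JUN promoter regions, with 137 and 84 reads (0.16), 118 and 56 over the start (-0.22), 46 and 11 (-1.22), and 30 and 15 (-0.20). Col16a1 held 63 and 36 reads over its start (0.02) and 301 and 138 further in (-0.22). Col14a1 held 10 and 3 reads (-0.87), and Col9a3 held 53 and 32 (0.09).

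Of all 46 JUN member promoter regions 2 were called higher (4.35%, against 4.82% of all JUN promoter regions) and 6 lower (13.0%, against 11.975%). Not all of them are listed here, and the further ones given below showed no common direction. Among those of Col4a1 were regions with 15 and 11 reads (0.31), 4 and 6 (1.20), 39 and 9 (-1.27) and 33 and 21 (0.14). The Col4a2 promoter region held 26 and 19 reads (0.32). Col8a1, a hexagonal network gene made by vascular and other stromal cells, held 60 and 38, 22 and 19, and 66 and 37 reads, with ratios of 0.16, 0.55 and -0.01. The transmembrane genes Col17a1 and Col13a1 held 27 and 13 reads (-0.26) and 13 and 7 (-0.12), and Col28a1 held 45 and 20 (-0.35) and 18 and 12 (0.18). At the Col8a2 promoter 11 reads in TGF faced 0 in siHK1, at least 1.98-fold lower when 3 reads are taken as the floor of that library. At the Col2a1 promoter 0 reads in TGF faced 4 in siHK1, at least 2.47-fold higher by the same floor.

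**Figure D3:**
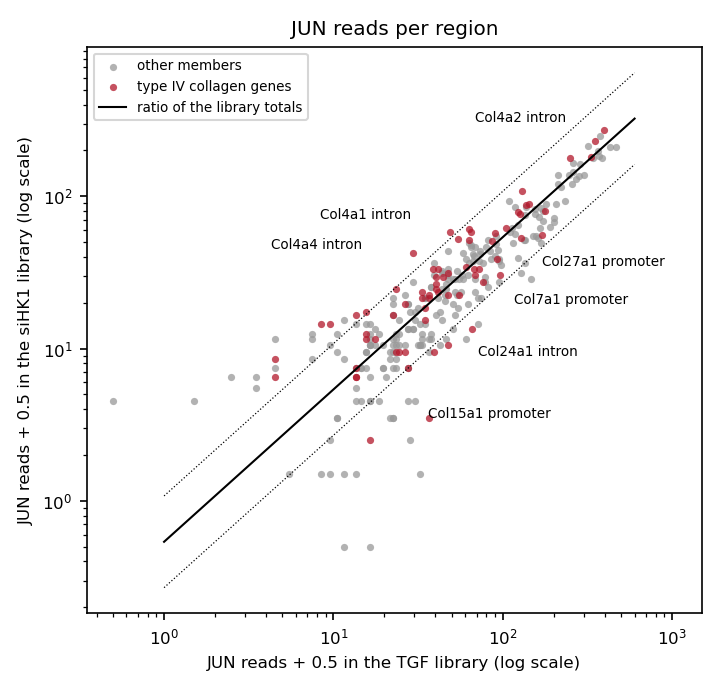
JUN reads plus 0.5 of each member region in the TGF library (horizontal axis, log scale) and the siHK1 library (vertical axis, log scale), without the 3 regions that match mitochondrial DNA. The solid line is the ratio of the library totals and the dotted lines are 2-fold to either side. Type IV collagen regions (red) lie mostly along or above the line, and the Col7a1 promoter at 146 and 28 reads lies below the lower dotted line.

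JUN reads at the type IV collagen genes were mixed, with a median just above 0. The 68 type IV regions had a median log2 ratio of 0.14, with 7 called higher (background 5.66%) and 6 lower (background 13.7%), beside a median of -0.13 for all JUN regions. The largest rise above the median level was in Col4a4 intron 1, with 29 reads in TGF and 42 in siHK1 (1.30). Next came Col4a1 intron 2, with 48 and 58 (1.07). Col4a4, which with Col4a3 and Col4a5 builds the network of the kidney and lung basement membrane, had 5 JUN regions, and over all of them its reads were 303 and 156, a ratio at equal totals of -0.07. Col4a3 held 47 and 17 reads over 3 regions (-0.57, -1.47 to 0.25), of which 2 were called lower and 1 higher. By the mean of the 2 log2 values the highest member region outside the mitochondrial match was in Col4a2 intron 4, with 397 and 272 reads (0.37).

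Col4a1 and Col4a2 code for the chains of the common basement membrane network and are transcribed apart from a shared start on chromosome 8. Their GENCODE models overlap there, Col4a1 at chr8:11198423-11312826 on the minus strand and Col4a2 at chr8:11312805-11449287 on the plus strand. No JUN region covered the shared start. Within the Col4a1 body 19 regions held 1352 reads in TGF and 955 in siHK1, a log2 ratio at equal library totals of 0.39 (exact 95% interval 0.27 to 0.51). Within the Col4a2 body 21 regions held 2291 and 1266 reads, a ratio of 0.04 (-0.06 to 0.14). The intervals of the 2 bodies do not overlap, but they cover counting error only, with 1 library per arm. The difference between the bodies was not tested.

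Single regions along this locus, described after their values were seen, were not uniform. In Col4a1 the highest regions held 350 and 229 reads (0.30), 249 and 179 (0.42) and 130 and 108 (0.59), at -38.7, -52.7 and -50.5 kb from the shared start, where minus is the Col4a1 side. In Col4a2, neighbouring regions at 15.2, 17.4 and 18.6 kb held 171 and 55 reads (-0.76), 96 and 30 (-0.82) and 65 and 13 (-1.46). These lower regions are listed under Col4a1 although they lie in Col4a2. A further region outside both genes, at -117 kb, held 36 JUN reads in TGF and 3 in siHK1 (-2.60).

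**Figure D4:**
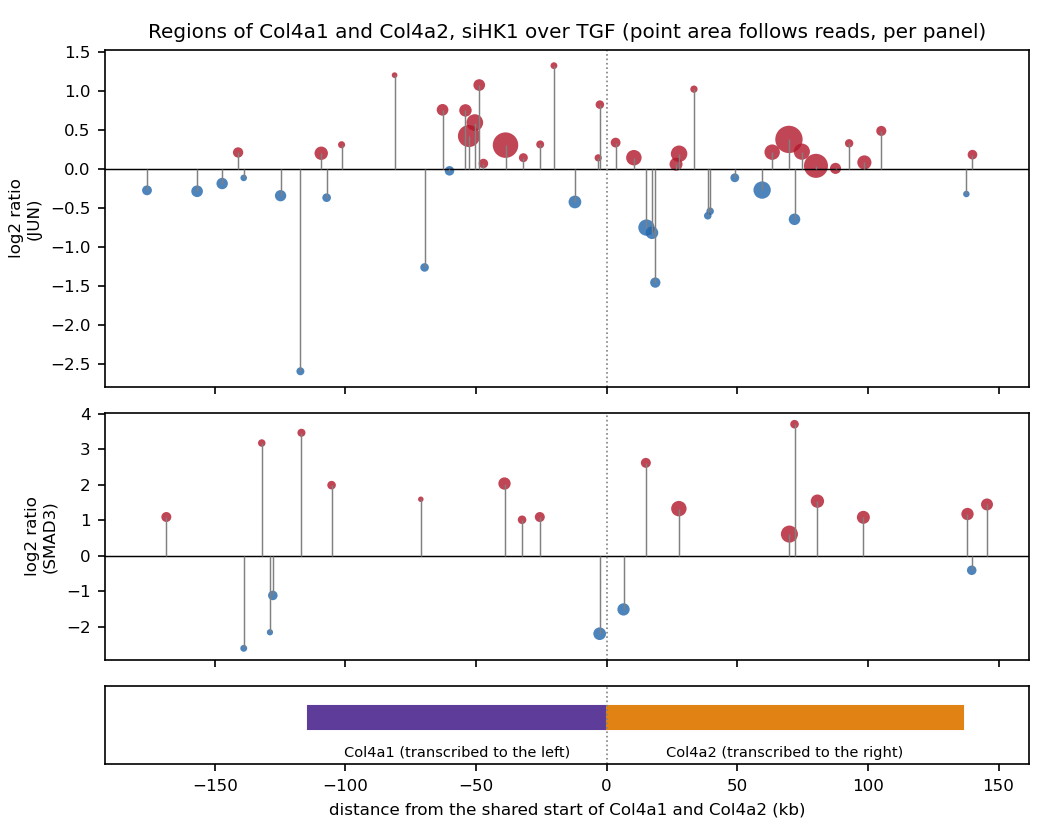
Log2 ratio (vertical axes, deposited scaling) of each JUN region (upper panel) and SMAD3 region (middle panel) of Col4a1 and Col4a2 against the distance from their shared start in kb, with point area following the reads of the region, red for values above 0 and blue for values below, and bars for the genes below. JUN ratios in the Col4a1 body are mostly above 0, and the neighbouring regions 15.2 to 18.6 kb into Col4a2 are below it.

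Reads of all regions of a gene were summed to obtain 1 value per gene and antibody, scaled to equal library totals. For JUN, the exact 95% interval of the sum lay above 0 at 3 of 32 genes (9.38%, background 10.2% of all genes) and below 0 at 8 (25%, background 11.7%). Intervals narrow as reads rise, and among genes with at least 500 JUN reads 8 of 19 member genes, Col19a1 included, lay below 0, against 20.2% of 3721 genes, and 4 lay above 0, against 16.6%. The 3 above were Col4a1, Col4a2 and Col4a6, and the 8 below were Col6a1, Col6a2, Col6a3, Col7a1, Col15a1, Col16a1, Col18a1 and Col27a1. All intervals here reflect counting error alone, and PCR copies of a molecule are not independent of each other. In bulk libraries such as these, a change in the cells present and a change per cell cannot be told apart.

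Among the genes above 0, Col4a6, a chain of smooth muscle basement membranes, held 311 and 244 JUN reads over 10 regions, a log2 ratio of 0.54 (0.29 to 0.79). Col4a1 held 2487 and 1490 reads (0.15, 0.06 to 0.25) and Col4a2 held 1559 and 922 (0.13, 0.02 to 0.25). With the deposited scaling, averaged with reads as weights, these 3 ratios were 0.43, 0.08 and 0.11. Among the genes below 0, Col7a1 held 501 and 208 reads (-0.38, -0.62 to -0.14) and Col6a1 held 542 and 226 (-0.37, -0.60 to -0.14). Col18a1 held 1647 and 705 (-0.33, -0.46 to -0.20) and Col6a2 held 779 and 342 (-0.30, -0.48 to -0.11). The ratios of Col27a1, Col16a1, Col6a3 and Col15a1 ran from -0.25 to -0.16. The differences are small, since the largest of them is less than 1.5-fold.

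SMAD3 ratios were spread far more widely, and with the deposited scaling more were at least 2-fold higher than lower in siHK1, while at a 4-fold limit 24 were higher and 28 lower. Of 194 member regions 78 were called higher (40.2%, background 27.5%) and 54 lower (27.8%, background 35.8%). The median log2 ratio was 0.54 for members and -0.16 for all regions. Without any scaling 60 were called higher and 61 lower, with a median of 0.16. The interval of the member median over regions, which are not replicates, ran from -0.10 to 0.85. Without the mitochondrial match 75 were called higher and 54 lower. The same lean appeared in the fibril-forming genes left out by the rule, where 23 of 55 SMAD3 regions were called higher (41.8%), so the members shared it with the other collagens. The share of SMAD3 reads at the mitochondrial match was 6.24% and 9.20% in the same libraries, and its part in these ratios was not tested.

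Promoter regions are given here as a description. None of the 31 SMAD3 member promoter regions had a peak in both libraries, against 7.31% of all 11098 SMAD3 promoter regions. A peak in TGF only was at 10 and in siHK1 only at 21, so each entered through 1 library. Over all SMAD3 promoter regions these counts were 3684 and 6574. Of these 31 regions 18 were called higher (58.1%, against 37.8% of all SMAD3 promoter regions) and 6 lower (19.4%, against 21.4%), with medians of 1.31 and 0.58. Reads were few, and the Col27a1 promoter held 8 in TGF and 17 in siHK1 (1.33), Col16a1 held 2 and 9 (2.09), Col18a1 held 3 and 8 (1.48) and Col8a1 held 2 and 7 (1.75). The opposite was seen at Col26a1, a gene of testis and ovary matrix, with 10 and 3 reads (-1.28). A larger fall was at the Col6a6 promoter, with 6 and 0 (-3.44).

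The named SMAD3 regions above the median level carried few reads as well. The largest rises were in Col16a1 intron 51, with 1 and 11 reads, in Col27a1 intron 37, with 1 and 10, and at Col9a3, with 1 and 9. At equal totals and without a pseudocount the first of these is a log2 ratio of 3.95, with a counting interval of 1.17 to 9.38. Among the largest falls were those upstream of Col13a1, with 8 and 1 reads (-2.21), and in Col24a1 intron 20, with 20 and 3 (-2.17). The highest SMAD3 regions outside the mitochondrial match lay at Col9a1 (62 and 35 reads), Col23a1 (53 and 36) and Col26a1 (49 and 30), with ratios from -0.33 to -0.08.

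SMAD3 sums run over 194 regions, of which 105 had a peak in siHK1 only and 79 in TGF only. Over all 58633 SMAD3 regions the counts were 27953 and 27665. The sums carry that selection, and are given as a description. The counting interval of the sum lay above 0 at 13 of 29 genes (44.8%, background 15.0%) and below 0 at Col24a1 alone (background 8.42%). Col6a2 held 5 reads in TGF and 27 in siHK1 (2.93, 1.53 to 4.66), and Col7a1 held 10 and 25 (1.82, 0.71 to 3.04). Col27a1 held 27 and 57 (1.57), Col16a1 held 32 and 59 (1.38), Col4a2 held 39 and 70 (1.34), Col15a1 held 41 and 67 (1.20) and Col4a1 held 58 and 75 (0.87). Col24a1, with 61 and 26 reads, had a ratio of -0.74 (-1.46 to -0.05). Col4a6 went from 11 reads to 0, for which no ratio is given.

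**Figure D5:**
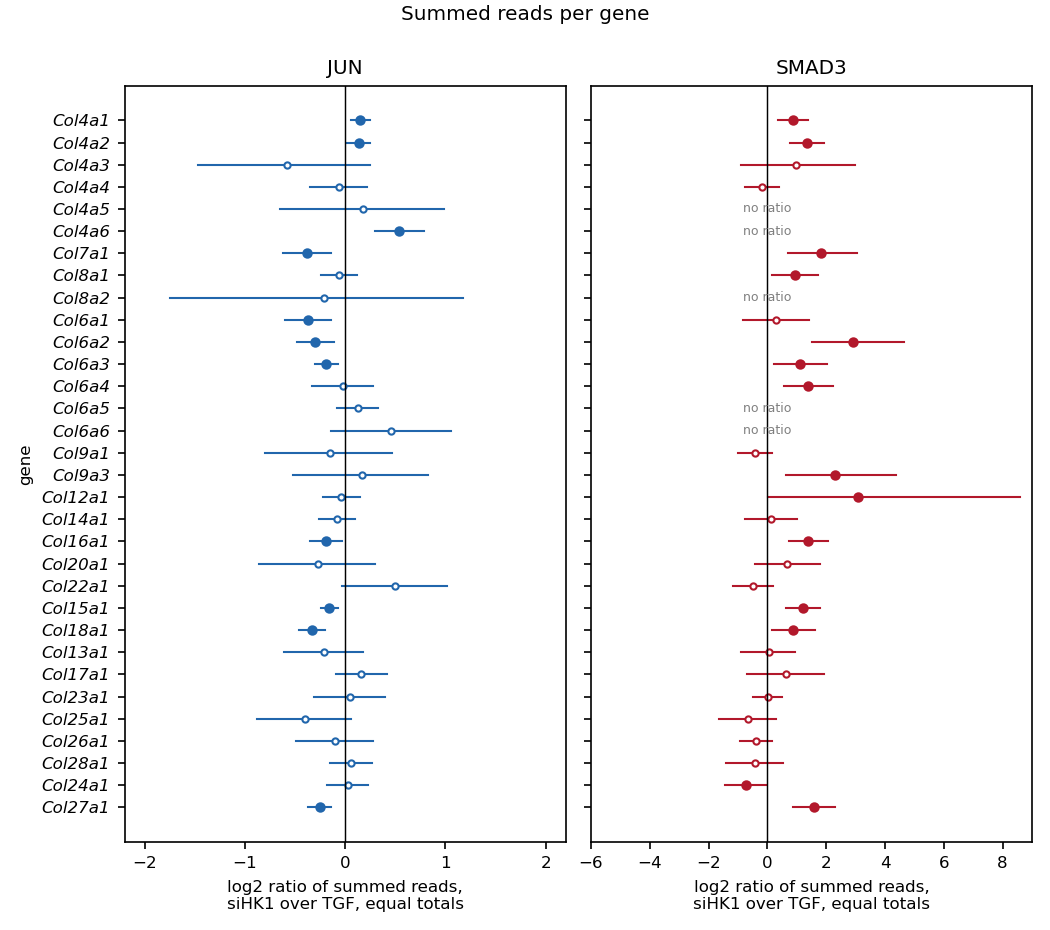
Log2 ratio of summed reads, siHK1 over TGF at equal totals (horizontal axes, which differ in range), for each gene with JUN reads in both libraries, without Col19a1, for JUN (left) and SMAD3 (right). Lines are exact 95% counting intervals and filled points are those that leave out 0, so that Col4a1, Col4a2 and Col4a6 lie right of 0 for JUN and Col6a2, at 2.93, lies farthest right among genes with more than 6 SMAD3 reads in siHK1.

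JUN and SMAD3 ratios were compared where their regions share bases. JUN regions were shared by at least 1 base at 57 of 194 SMAD3 member regions (29.4%, against 23.0% of all SMAD3 regions). Of these 57, 31 were called higher for SMAD3 (54.4%) and 5 lower, against 47 higher and 49 lower among the 137 that shared none. Over the whole SMAD3 table the regions that shared a JUN region were called higher in 40.5% and lower in 10.2%, so this split too was general. Taking for each SMAD3 region the JUN region with the largest overlap, JUN was below 0 and SMAD3 above 0 at 24 of the 57 (42.1%, against 40.6% of all). Both were above 0 at 18, both below 0 at 10, and JUN was above and SMAD3 below 0 at 5. JUN was called lower and SMAD3 higher at 4 (7.02%, against 3.22% of all). Examples of opposite ratios, chosen after their values were seen, follow. At the Col7a1 start JUN reads went from 146 to 28 while SMAD3 reads went from 3 to 9. At a further Col7a1 region JUN went from 95 to 37 and SMAD3 from 1 to 8. In Col4a2, 15.2 kb from the shared start, JUN went from 171 to 55 and SMAD3 from 1 to 8.

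NFATC2 member regions stayed close to their table. Of 220 regions 85 were called higher (38.6%, background 37.2%) and 62 lower (28.2%, background 28.6%), with medians of 0.49 for members and 0.36 for all. Among member regions of at least 200 bp 62 were called higher and 58 lower, with a median of 0.18. The largest rises above the median level were in Col23a1 intron 3, with 1 and 7 reads, and in Col27a1 intron 37 and over the Col19a1 start, with 1 and 6 each. The largest falls were in Col13a1 intron 17 and upstream of Col2a1, each with 11 and 1, and at the Col17a1 promoter, with 10 and 1. Gene sums lay above 0 at 3 of 30 genes (10.0%, background 8.74%), which were Col6a1, Col8a1 and Col18a1, and below 0 at Col6a4 and Col17a1 (6.67%, background 4.13%). Col8a1 held 25 and 30 NFATC2 reads (0.96, 0.15 to 1.79), and its SMAD3 sum was also above 0.

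H3K9lc at member regions was lower and higher at similar numbers. In siHK1 over TGF 28 of 153 regions were called higher (18.3%, background 10.6%) and 23 lower (15.0%, background 16.4%). The median was -0.10 for members and -0.19 for all regions. At equal totals the member median was 0.023, with 30 called higher and 19 lower. Above the table's median level only 1 was called higher and 3 lower of 63 (1.59% and 4.76%, against 1.64% and 5.02% of all regions at that level), so most calls came from regions with few reads. The regions called there were distal to Col22a1, 10 and 13 reads (1.01), and, lower, distal to Col6a2, 29 and 7 (-1.27), in Col4a4 intron 22, 28 and 7 (-1.22), and in Col26a1 intron 3, 24 and 6 (-1.22). Next among the higher values came Col8a1, 16 and 19 (0.91), and Col6a1, 15 and 17 (0.85).

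Summed H3K9lc reads were above 0 at 3 of 25 genes (12%, background 4.72%) and below 0 at Col7a1 alone (background 7.12%). Among genes with at least 500 H3K9lc reads 3 of 4 member genes, Col19a1 included, lay above 0, against 8.13% of 1415 genes. None of these 4 lay below 0, against 21.3% of all genes at that depth. The transmembrane genes Col13a1 and Col23a1 held 629 and 435 reads (0.28, 0.10 to 0.46) and 626 and 430 (0.27, 0.09 to 0.45). Col2a1, the cartilage collagen, held 161 and 122 (0.41, 0.06 to 0.76). Col7a1 had a single H3K9lc region, with 22 reads in TGF and 4 in siHK1 (-1.65, -3.64 to -0.09), inside the gene and overlapping a JUN region whose reads were 260 and 143. The highest H3K9lc region outside the mitochondrial match was a short one in Col23a1 intron 2 at chr11:51455581-51455844, with 299 and 217 reads (0.36). Col26a1 held 376 and 203 reads over 14 regions (-0.08) and Col22a1 held 125 and 65 over 11 (-0.13), both with intervals across 0.

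In TGF over NC, 60 of 140 H3K9lc member regions were called higher (42.9%, background 50.1%) and 21 lower (15.0%, background 11.9%). The median was 0.63 for members and 1.01 for all regions with the deposited scaling, and -0.31 and -0.08 at equal totals, where 14 were called higher (10.0%, against 14.7% of all regions) and 51 lower (36.4%, against 24.9%). At equal totals with a pseudocount of 0.1 in place of 0.5, 63 were called higher and 38 lower. The direction of this comparison therefore depends on the scaling, with a shift of -1.09 over all regions, and on the pseudocount. Of the member regions 58 had 0 reads in NC, among them a Col13a1 promoter region (64 in TGF), a Col4a4 intron 37 region (54) and a Col17a1 promoter region (45). The largest falls above the median level were 2 Col23a1 intron 2 regions, with 2 and 5 reads (-1.83) and 2 and 10 (-1.03). At the short Col23a1 region NC held 27 reads, TGF 299 and siHK1 217. No gene sum lay above 0 (background 5.50%), and of 23 genes only Col23a1 lay below it (4.35%, background 3.51%), with 42 and 586 reads (-0.52, -0.97 to -0.03), a sign that turned to 0.18 with the deposited scaling. The TGF library is common to this table and the siHK1 table.

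Genes that modify, export or anchor collagen, a list of 33, were read beside the members. All 33 had JUN regions, and of their 219 regions 10 were called higher (4.57%) and 29 lower (13.2%), close to the JUN background. Above the median level lower JUN was found at Bmp1, which removes procollagen propeptides (62 and 13 reads, -1.40), and at P3h3 (55 and 12, -1.34) and P3h1 (58 and 14, -1.20), prolyl 3-hydroxylases. It was also found at a distal intergenic region listed under Adamts3 (53 and 12, -1.29) and in Adamts2 (56 and 15, -1.06), procollagen N-proteinases. Higher JUN was found at Nid1, a partner of type IV collagen in basement membranes (46 and 56, 1.08), and in Adamts3 intron 4 (32 and 40, 1.10). SMAD3 was called higher at 55 of the 121 regions of the list (45.5%, background 27.5%) and lower at 20 (16.5%, background 35.8%). Of the called regions, those with the most reads were at Serpinh1 and P4ha1. Serpinh1, the collagen chaperone, held 15 and 38 reads (1.66), and P4ha1, a prolyl 4-hydroxylase subunit, held 20 and 33 (1.08). Falls included the Sec23a promoter, with 18 and 2 (-2.52), and a Pcolce2 intron, with 10 and 1 (-2.50). H3K9lc was called higher at 14 of 86 regions of the list (16.3%, background 10.6%) and lower at 18 (20.9%, background 16.4%). It was lower at Plod2, a lysyl hydroxylase (26 and 5, -1.57), and at a Nid1 region (40 and 11, -1.10). It was higher at P3h2 (8 and 18, 1.76), at Adamts3 (9 and 14, 1.25) and at a second Nid1 region (9 and 13, 1.15). NFATC2 was called higher at 67 of 140 regions (47.9%, background 37.2%) and lower at 27 (19.3%, background 28.6%).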

How the data were processed

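CUT&Tag tables of 5 comparisons were used. Per the labels, reads were aligned with BWA 0.7.12 to mm10, while the study's methods name Bowtie2, MACS2 and GRCm39. Transcript coordinates in the files match GENCODE vM21, so coordinates are given on GRCm38, counted from 1. The authors deposited raw read counts per region, and log2 values normalised per library, each a straight line in log2(count + 0.5), with peak marks and gene annotation. Columns of the authors' own ratios, p-values and calls were not used. From these, log2 ratios per region and sums per gene were computed with Python 3.11.15, pandas 2.3.3 and scipy 1.17.1, sequences were read with pysam 0.24.0, and the functions were tested on simulated data. Intervals are exact conditional binomial or Clopper-Pearson at 95%. The number of reads limits the precision of each value. The members and lists were chosen with earlier results of these data known. Named are genes with a JUN promoter region, the 6 with most regions and, per table, the 3 regions with the largest rise, fall and level, where the mitochondrial match was passed over for the next, and processing genes called above the median level, as examples. Regions that this rule names at one place are not reported here. A library whose labels name no antibody was not used. Alternatives were other scalings, pseudocounts, fold limits, widths, levels, region classes and gene lists.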

Additional observations from a re-analysis of the deposited data

Results flagged for a closer look

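At 7 genes the summed SMAD3 and JUN reads moved in opposite directions from TGF to siHK1, with both counting intervals leaving out 0, and this difference between antibodies was not tested. Most SMAD3 regions had a peak in 1 library only and so entered through the library where they were high, which the sums carry. The SMAD3 log2 ratio minus the JUN log2 ratio was 3.22 at Col6a2, 2.19 at Col7a1, 1.82 at Col27a1, 1.57 at Col16a1, 1.36 at Col15a1, 1.29 at Col6a3 and 1.22 at Col18a1. At each of them SMAD3 was higher and JUN lower in siHK1, with 5 to 41 SMAD3 reads in TGF and 1 library per arm. The same pattern was seen at 410 of 12685 genes with reads of both factors in every library (3.23%), against 7 of 27 member genes (25.9%). Among genes with at least 500 JUN reads it was seen at 7.28% of 3598 genes and at 7 of 17 member genes, Col19a1 included. Col4a1 and Col4a2 had both sums above 0.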

How the results depend on the processing

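With 1 library per arm there was none to leave out. No paired analysis was possible because every antibody had a single library in each condition. Of the recomputed counts, medians and shares, 128 stayed within their limits, 49 moved and 4 reversed, and of the gene sums 107 stayed, 7 moved and 1 reversed. Counts are given as member regions called higher and lower. Without scaling they were 12 and 61 with a median log2 ratio of -0.79 for H3K9lc, 4 and 145 with -0.96 for JUN, and 123 and 5 with 4.02 for TGF over NC, while SMAD3 had 60 and 61 with 0.16, and NFATC2 turned to 61 and 82 with a median of -0.24. At equal totals TGF over NC gave 14 and 51 with a median of -0.31, the same without the mitochondrial match, an alternative added after seeing the data. Equal totals together with a pseudocount of 1 gave 4 and 69 with a median of -0.94 for TGF over NC, 13 lower for H3K9lc and a JUN median of -0.048, and equal totals with a pseudocount of 0.1 gave 63 and 38 with a median of 0.018 for TGF over NC. The cause of these reversals was not tested. Above the median level, which tests fewer regions, counts were 2 and 7 for JUN, 1 and 3 for H3K9lc, 35 and 23 for NFATC2, 43 and 12 for SMAD3, and 15 and 2 with a median of 0.16 for TGF over NC. Leaving out distal regions gave 15 higher for H3K9lc. A limit of 1.5-fold gave 42 lower for H3K9lc, 34 and 78 for JUN and 33 lower for TGF over NC, and a limit of 4-fold gave 4 and 7 for JUN, 11 and 5 for H3K9lc, 46 and 37 for NFATC2, 24 and 28 for SMAD3 and 16 higher for TGF over NC. With promoters taken within 1 kb their share was 1.96% for H3K9lc, 8.05% for JUN, 8.76% for SMAD3, 8.18% for NFATC2 and 2.14% for TGF over NC. The summed Col23a1 ratio of TGF over NC was 0.18 with the deposited scaling. A median of 3 reads or fewer per region limits the SMAD3, NFATC2 and NC values.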
